A study of Mus musculus with 102 samples.

Results

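The comparison covers every CpG that was measured by capture bisulfite sequencing in TTKO cells before and 4 days after Cre, 2177608 of 2177608 CpGs in the SureSelect table and 10.2% of the CpGs of the 21 mouse chromosomes used. No CpG was selected by its level. The cells were mouse embryonic stem cells (ESCs) of the strain C57BL6/J, and 6 of the 102 samples of the series enter this comparison. TTKO is a line from 1 clone with frameshift mutations in Tet1, Tet2 and Tet3, made in cells whose catalytic exons of Dnmt3a and Dnmt3b are flanked by loxP sites. The day 0 cells were TTKO, not transduced, with Dnmt3a/3b intact (3 replicates). The day 4 cells were the same line 4 days after transduction with Cre protein, labelled as Dnmt3a/3b catalytic dead (3 replicates). Wild-type cells (WT, wild-type TET, Dnmt3a/3b intact, day 0, 3 replicates) are given as a reference level. The later Cre samples of days 8, 10, 13, 17 and 29 are given where they show what followed.

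DNMT3A and DNMT3B place methyl groups on CpGs that carry none, DNMT1 copies existing methylation onto new strands at replication, and the TET proteins oxidize methylcytosine as a step towards its removal. Where no new methyl groups are placed and copying is incomplete, methylation is diluted as cells divide. Day 4 was the first sampled day after Cre.

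The authors joined the 3 replicates of each condition before deposit, so each value below is a pooled level of one column and carries no replicate error. Levels are the authors' percent of reads that kept a cytosine at the CpG, and neighbouring CpGs were often read from the same DNA fragment. Median coverage was 248 reads per CpG at day 0, 216 at day 4 and 247 in WT, and no column held a CpG under 50 reads. SureSelect had no mock-transduced samples. Day 4 also differed from day 0 by the transduction itself and by a change from feeder cells to feeder-free plates after it, and in SureSelect these cannot be told apart from the loss of Dnmt3. Mock samples were measured in amplicons alone and are given further on.

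The 257 measured CpGs of *Dnmt3a* (chr12:3806007-3914443) took 83.2 reads per 1e6 reads before Cre and 86.9 at day 4, between 84.5 and 95.9 at the later days and 87.0 in WT. The 81 CpGs of *Dnmt3b* (chr2:153475186-153513466) took 37.6 and 38.1, between 37.7 and 39.3 later and 37.8 in WT. The last measured CpG lay 16746 bases before the end of *Dnmt3a* and 14492 bases before the end of *Dnmt3b*. Only CpGs with at least 50 reads in every column were deposited, so CpGs that lost most of their reads could be absent. Whether the deleted exons held any measured CpG was not tested, so these counts do not show the deletion.

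The mean level over all CpGs was 35.8% at day 0 and 34.6% at day 4, a mean change of -1.28 percentage points and a median change of -0.55. The chromosome means ran from -1.52 to -0.79 over 21 chromosomes. Fisher's exact test on the pooled reads, with Benjamini-Hochberg adjustment over all CpGs and a threshold of 0.05, called 33818 CpGs lower at day 4 (1.55%) and 2994 higher (0.137%). Of the calls, 25370 were lower by at least 10 points (1.17%) and 1956 higher by as much (0.0898%). The called lower CpGs went from a mean of 49.1% to 35.8%, and the called higher ones from 31.9% to 43.9%. Called CpGs were read more deeply, with median day 0 coverage of 452 reads for lower and 508 for higher calls, against 248 for all. The share called thus depends on depth as well as on the change. Fisher's test takes reads as the only source of error. With a variance that allows for an over-dispersion set at 0.0055 between the 3 joined replicates, 3356 CpGs were called lower (0.154%) and 153 higher (0.00703%). The amplicon replicates of day 0 and Cre day 4 varied by more than that, and with their mean over-dispersion of 0.0170 the calls came to 23 lower and 0 higher. The study itself used a binomial error model for SureSelect and a beta-binomial one for the much deeper amplicons. It reports that the binomial model described the spread between SureSelect replicates well, and that the lower coverage made the other unnecessary. The replicate spread of SureSelect could not be measured from joined columns, so which count applies was not tested. The unadjusted Fisher p was under 0.05 at 184641 lower and 40753 higher CpGs. A single called CpG is therefore reported here as a difference between 2 pools of reads. Runs of neighbouring CpGs share reads and the same pools, so they carry no replicate error either.

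The change depended on how methylated a CpG was. Because a noisy day 0 value is part of the change, CpGs were banded by the mean of their day 0 and day 4 levels. The mean change was -0.11 points below 5% methylation, -1.91 at 10 to 20%, and reached -3.50 at 40 to 50%. It then shrank to -1.79 at 70 to 80%, -0.78 at 80 to 90% and -0.04 above 90%. At 40 to 50% the chromosome means ran from -4.51 to -2.23, and above 90% from -0.25 to 0.17, so these bands did not overlap. The share of CpGs called lower was highest at 30 to 40% (6.10%) and was 0.092% above 90%. CpGs under 5% at day 0 had a mean of 1.55% at day 0 and 1.56% at day 4. Of these 831420 CpGs 147 (0.018%) were called lower and 211 (0.025%) higher. They lie near the floor, where a large fall is not possible, and were chosen by a low day 0 value. They therefore give no background for CpGs of higher levels. Under 5% by the mean of both days, 0.0594% were called lower and 0.0121% higher.

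**Figure D1:**
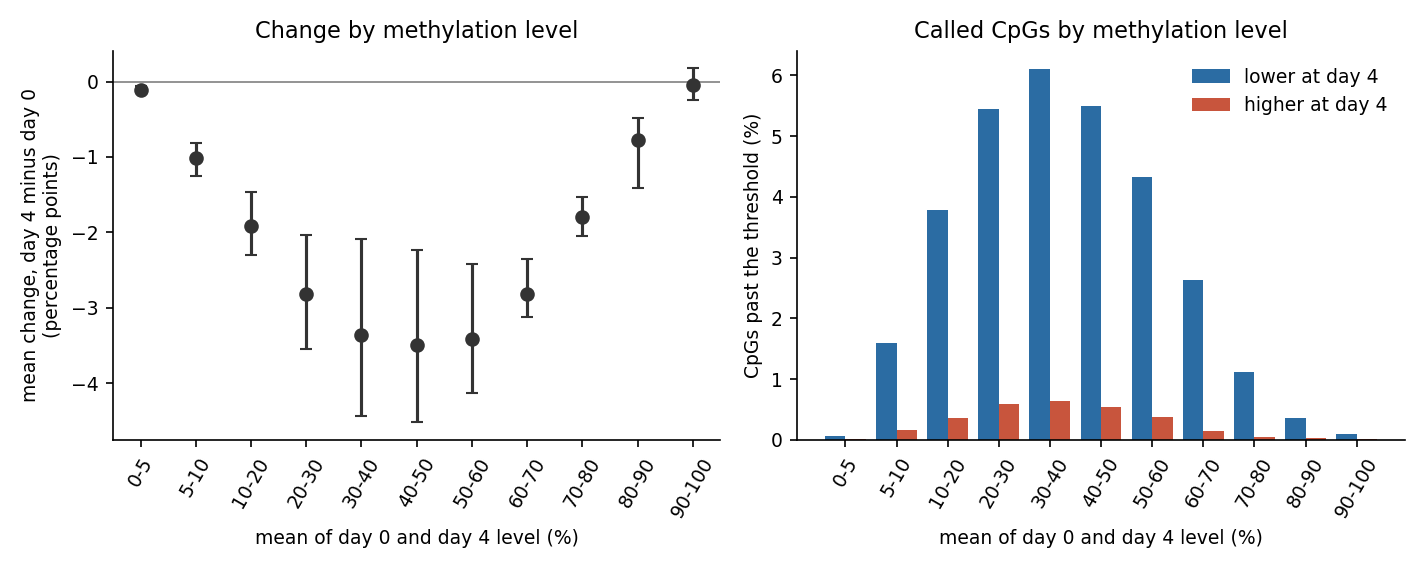
Left, mean change from day 0 to day 4 in percentage points against the mean of both levels, with bars from the lowest to the highest chromosome mean. Right, percent of CpGs called lower (blue) or higher (red) by Fisher's test in the same bands. The change is near 0 at both ends and reaches -3.50 points at 40 to 50%.

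The levels of the called lower CpGs at day 0 were set beside WT. Their median was 50.3% in TTKO cells at day 0 (quartiles 30.9 and 67.6%) and 12.7% in WT (quartiles 5.04 and 29.3%). At 82.0% of them TTKO cells were at least 10 points above WT at day 0, a share that the choice by a fall from day 0 raises. For the CpGs called higher, where that choice acts the other way, it was 54.3%. For CpGs of 20 to 80% that were not called this share was 74.2%, with medians of 64.2% in TTKO cells and 33.9% in WT. The WT level of the CpGs called higher was as low, with a median of 12.6%, and 66.6% of them were under 20% in WT against 63.8% of those called lower. Among all CpGs this share was 61.2%, and among CpGs of 20 to 80% that were not called it was 33.3%. The change was also compared with the WT level at matched TTKO levels. Among CpGs of 60 to 90% (mean of both days), the mean change was -4.46 points where WT was under 5% and -3.51 where WT was 5 to 10%. It was -2.40 where WT was 20 to 30%, -1.71 at 50 to 60% and -0.44 at 80 to 90%. The chromosome means for WT under 5% (-5.35 to -3.14) did not overlap with those for WT at 50 to 60% (-1.96 to -1.45). CpGs with a low WT value were also lower in TTKO cells within this band, so narrower bands were compared. In bands of 5 points of TTKO level, CpGs under 20% in WT changed by -3.93 points and CpGs of at least 60% in WT by -2.92 at 60 to 65%. At 70 to 75% the values were -3.11 and -1.73, and at 85 to 90% they were -1.16 and -0.39. The difference had the same sign in all 6 bands and averaged -1.10 points. When the bands were set by the day 0 level alone it averaged -3.82 points. Below 60% in TTKO cells the order held for the lowest WT levels only. In the 40 to 60% band the change was -5.51 points for WT under 5% and between -3.63 and -2.86 for all WT bins from 10 to 70%. It was -4.93 for WT at 70 to 80%, a bin of 215 CpGs.

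**Figure D2:**
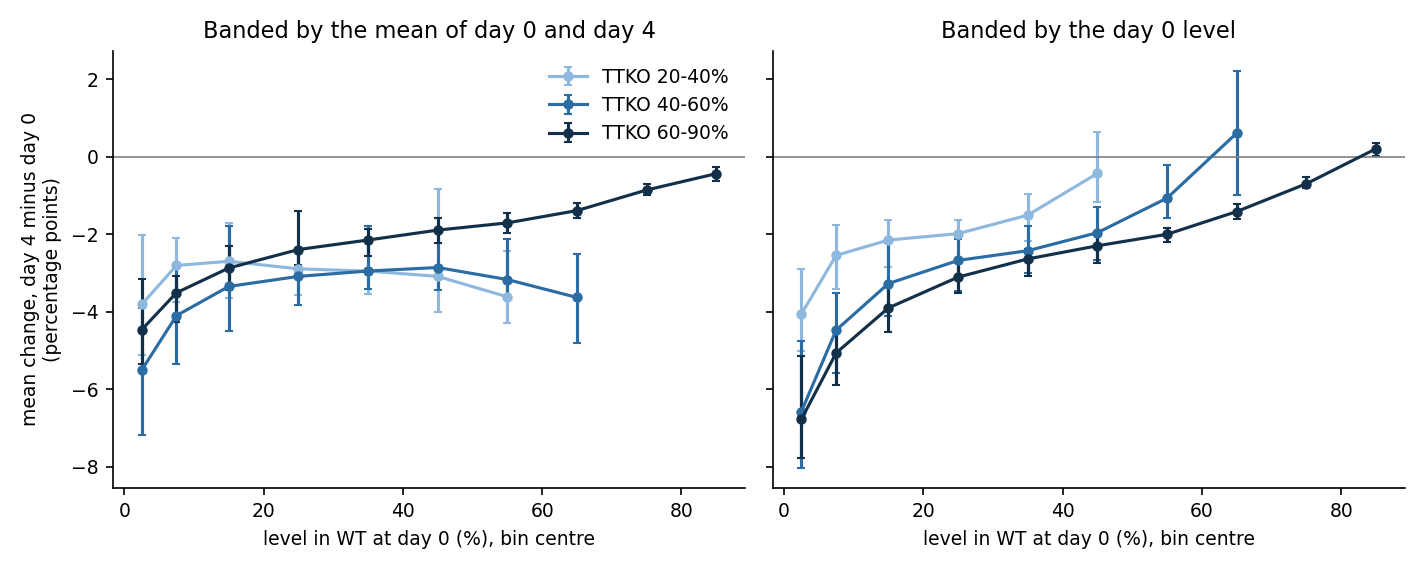
Mean change from day 0 to day 4 in percentage points against the WT level at day 0, for TTKO levels of 20 to 40%, 40 to 60% and 60 to 90%, with bars from the lowest to the highest chromosome mean and bins under 1000 CpGs left out. With bands set by the mean of both days (left) the change at 60 to 90% runs from -4.46 to -0.44 points; with bands set by the day 0 level (right) it runs from -6.77 to 0.20.

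Called lower CpGs lay close to each other. Of all pairs in which one CpG was called and the other was at 20 to 90%, the partner was also called in 44.2% of cases at 2 to 10 bases, 31.3% at 26 to 50 bases and 22.7% above 100 and up to 200 bases. The share was still 16.7% above 200 and up to 500 bases, 12.1% up to 1000 and 6.42% above 2000 and up to 5000, against 2.52% of all 1080288 CpGs in that range of levels. The mean change of these partners went from -11.0 points at 2 to 10 bases to -3.79 in the farthest bin, against -2.19 for all. The DNA had been sonicated to short fragments, so pairs in the nearer bins share reads and are not independent. The share called lower also depends on level, with 6.10% at 30 to 40% and 0.355% at 80 to 90%. Called lower CpGs had a median of 452 reads at day 0, against 260 for CpGs of 20 to 80%. The 2.52% is not matched to the partners in level or depth, and the part of either was not tested.

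**Figure D3:**
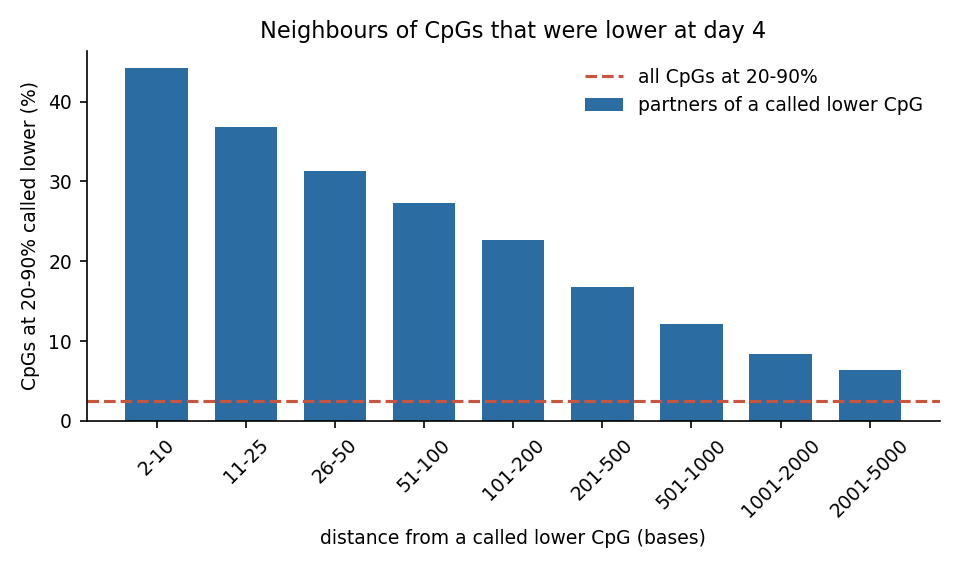
Percent of CpGs at 20 to 90% that were called lower, by their distance in bases from another called lower CpG. The dashed line is the share among all CpGs of that level (2.52%), not matched for level within this range or for depth. The bars decline from 44.2% to 6.42% and stay above it.

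Runs of called lower CpGs were gathered into clusters when gaps were at most 200 bases, at least 4 CpGs were called and at least 50% of the measured CpGs in the span were called. There were 1215 clusters with a median length of 216 bases, which held 8256 of the called lower CpGs (24.4%). Their median levels at days 0, 4, 8 and 29 were 47.7, 33.96, 29.1 and 13.5%, and the WT median was 10.0%. WT was under 10% at 607 of the 1215 clusters and at or above 40% at 73, and TTKO cells were below WT at 18. By position, 494 clusters were mainly intergenic, 446 in introns, 106 in promoters (1 kb either side of a start), 105 in coding exons and 64 in other exons. The clustered called CpGs were 40.1% intergenic, 35.9% intronic, 8.94% in promoters and 8.93% in coding exons. Among all CpGs of 20 to 80% these shares were 34.8, 42.0, 9.92 and 8.21%, and the differences were not tested. The definition of a cluster favours dense CpGs, and the clustered called CpGs had a mean of 7.31 CpGs in a window of 100 bases to either side, against 5.71 for called CpGs outside clusters and 4.95 for all CpGs of 20 to 80%. Counted with the allowance for an over-dispersion of 0.0055 there were 116 clusters.

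Stretches of 4 clusters are printed because they show how dense the changed CpGs were. They come from the mm9 plus strand, 5′ to 3′. The stretch for *Lhx9*, an intron of a LIM-homeobox gene on the minus strand, is chr1:140738232-140738423, that for *Spred2*, a coding exon of an inhibitor of Ras-MAPK signalling, is chr11:19921068-19921265, the intergenic stretch on chromosome 3 is chr3:148882604-148882795, and that for *Itpk1*, an intron of an inositol phosphate kinase gene, is chr12:103938807-103939004. Capitals mark the CpGs that were called, lower in the first 3 and higher in the last.
Lhx9: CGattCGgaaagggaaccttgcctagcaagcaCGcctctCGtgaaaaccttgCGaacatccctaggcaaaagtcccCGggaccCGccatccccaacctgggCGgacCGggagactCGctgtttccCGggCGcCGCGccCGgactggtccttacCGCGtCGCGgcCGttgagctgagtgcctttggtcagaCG
Spred2: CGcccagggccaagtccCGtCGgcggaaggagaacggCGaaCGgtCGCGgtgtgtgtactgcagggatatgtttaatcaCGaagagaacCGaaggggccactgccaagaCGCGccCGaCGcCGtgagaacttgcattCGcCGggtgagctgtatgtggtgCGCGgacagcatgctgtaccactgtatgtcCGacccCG
chr3 intergenic: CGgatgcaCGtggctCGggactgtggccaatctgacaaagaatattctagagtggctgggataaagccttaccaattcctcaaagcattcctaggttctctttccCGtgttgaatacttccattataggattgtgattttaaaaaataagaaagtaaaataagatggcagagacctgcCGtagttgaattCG
Itpk1: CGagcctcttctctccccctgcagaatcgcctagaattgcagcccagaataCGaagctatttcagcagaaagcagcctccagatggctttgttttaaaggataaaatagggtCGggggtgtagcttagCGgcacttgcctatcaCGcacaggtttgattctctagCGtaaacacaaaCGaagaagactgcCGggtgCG
All 21 measured CpGs of the *Lhx9* stretch were called, and 20 of 22 in *Spred2*, 6 of 6 on chromosome 3 and 9 of 10 in *Itpk1*. The first 2 stretches are packed with CpGs, whereas the chromosome 3 stretch has few.

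The largest mean loss of any cluster was on chromosome 3 (chr3:148882106-148882930), an intergenic run of 18 CpGs with *Gm10287*, a predicted gene, as its nearest start. The level was 50.1% at day 0 and 13.7% at day 4, and then 13.5, 11.3, 10.7, 9.08 and 9.82% at days 8, 10, 13, 17 and 29, against 8.50% in WT. All 18 CpGs were called, with single changes from -49.8 to -24.7 points, and all 18 passed with the 0.0055 allowance too. Of the 23 CpGs that passed with the over-dispersion of the amplicons, 14 were nearest to the same start. The level at day 4 was thus already near that of WT. A neighbouring block of 6 CpGs (chr3:148883420-148883680) went from 62.4% to 34.02%, then to 27.7% by day 8 and 11.99% by day 29, with WT at 11.9%.

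The cluster in *Lhx9* (chr1:140738030-140738567) lay 6587 bases downstream of its nearest start and held 41 measured CpGs, of which 39 were called. Its level was 74.7% at day 0 and 49.7% at day 4. It then stayed at 49.6, 48.9, 49.0 and 45.4% at days 8, 10, 13 and 17 and was 52.7% at day 29, while WT was at 7.24%. All 41 CpGs were lower at day 4, with changes from -38.6 to -10.3 points. Coverage at this cluster was lower than the median, with means of 189 reads at day 0 and 171 at day 4. Around *Lhx9* the gene body as a whole (141 CpGs more than 1 kb from the start) went from 63.1% to 50.6%, the largest loss of the gene bodies examined. Among the 1215 clusters, 5 had a level at day 29 at or above that of day 4, and 54 had a level at day 8 at or above that of day 4. The other 4 with a day 29 level at or above day 4 had 4 to 8 measured CpGs each. One of them was a run of 5 CpGs on chromosome 3 (chr3:144075600-144075798) whose level was 43.5% before Cre and 20.8% at day 4. Its level was 20.6, 19.7, 15.6 and 13.9% at days 8, 10, 13 and 17, and 21.3% at day 29.

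**Figure D4:**
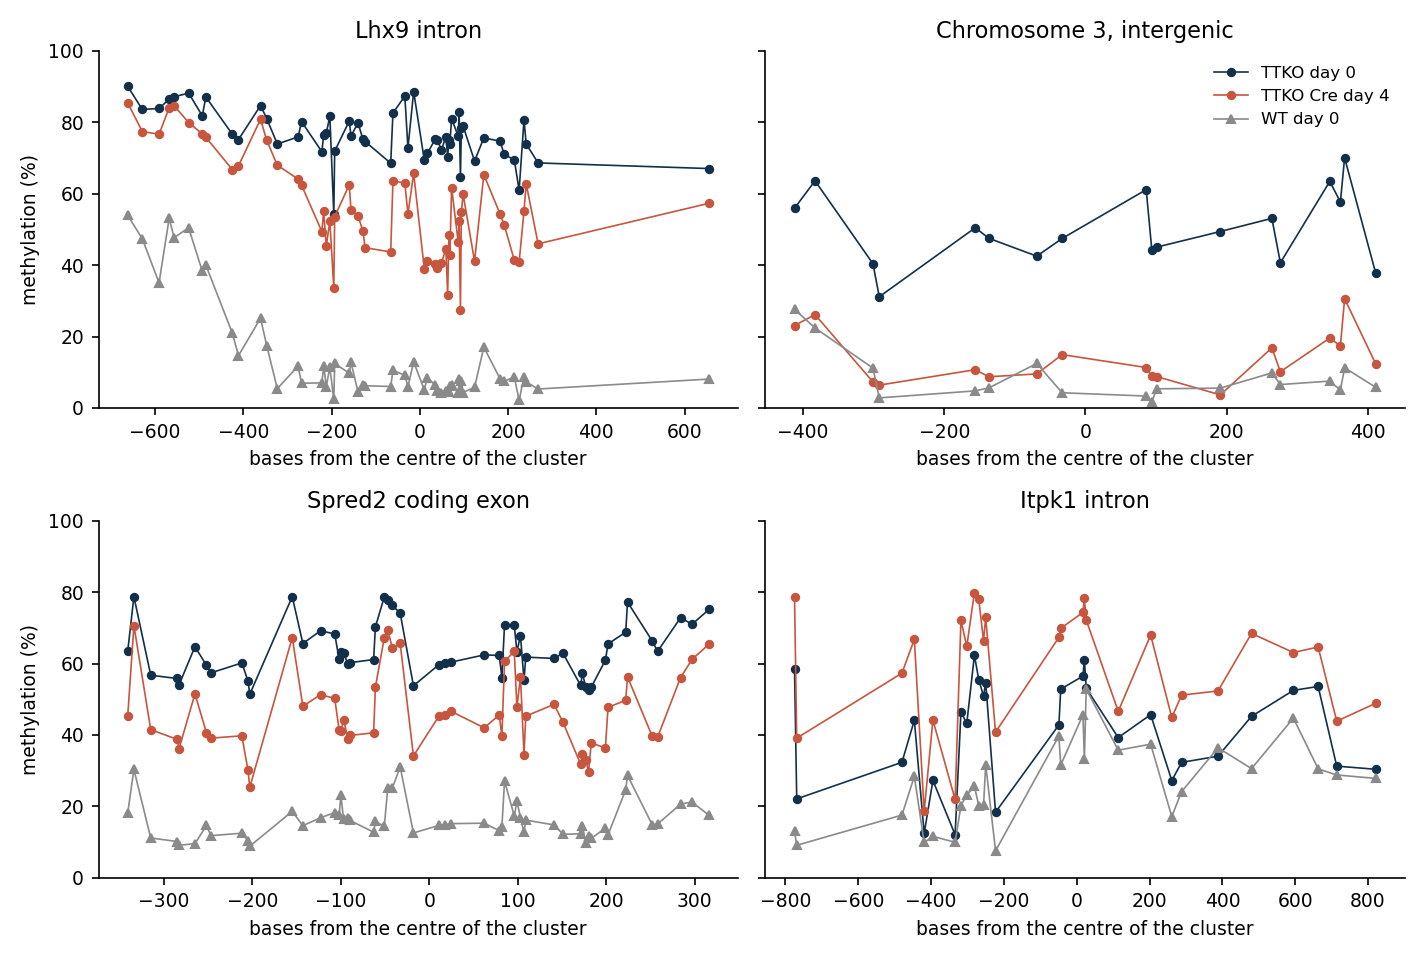
Methylation level in percent of each measured CpG against its distance in bases from the centre of the cluster, with up to 400 bases to either side, at TTKO day 0, TTKO Cre day 4 and WT day 0. At day 4 the chromosome 3 run lies close to WT, the *Lhx9* and *Spred2* runs lie between day 0 and WT, and the *Itpk1* run lies above day 0.

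The cluster with the most called CpGs was in a coding exon of *Spred2* (chr11:19920721-19921291), with 48 of 50 CpGs called. It went from 63.2% to 45.5%, and was 43.6% at day 8 and 33.1% at day 29, with WT at 15.9%. In *Kcna1*, a voltage-gated potassium channel gene with a single coding exon, 33 of 46 CpGs were called (chr6:126592763-126593431). The levels at days 0, 4, 8 and 29 were 47.1, 31.9, 30.6 and 23.5%, with WT at 9.69%. The cluster over the paired promoters of *Hist1h2ba* and *Hist1h2aa*, histone genes known from the male germ line, held 41 called of 58 CpGs (chr13:24025571-24026631) and went from 71.0% to 60.2%, with WT at 24.2%. A second histone promoter, that of *Hist1h2al*, went from 29.7% to 18.7% over 48 CpGs, 25 of them called, with WT at 7.18%. Reads from near-identical histone copies could be shared between them, which was not tested. An intergenic run on chromosome 6 (chr6:37636246-37637106) had 37 of 40 CpGs called and went from 59.4% to 44.5%, then to 36.6% at day 8 and 24.8% at day 29. In *Ipmk*, an inositol polyphosphate kinase gene, 26 of 30 CpGs of a coding exon were called (60.5% to 47.2%, WT 5.78%).

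Clusters near developmental transcription factor genes are described as a group. The genes were grouped by gene symbol (homeobox, Pax, Sox, Fox, Zic, T-box, Ebf and related families), and this grouping was made after the clusters had been seen, so its share among them is a description only. Such a gene had the nearest start at 84 of 1215 clusters (6.91%), at 27 of the 188 clusters with at least 10 called CpGs (14.4%), and at 2312 of the 82430 blocks of measured CpGs with at least 5 CpGs and a day 0 level of at least 20% (2.80%). The blocks were not matched to the clusters in number or density of CpGs, and the WT level of blocks near these genes was not compared. Median WT level was 4.65% at the 84 clusters and 10.96% at the other 1131, and WT was under 10% at 72 of the 84 (85.7%). The 84 clusters had median levels of 44.4, 30.8, 28.3 and 13.7% at days 0, 4, 8 and 29.

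Upstream of *Barx1*, a homeobox gene of jaw and stomach, 27 of 43 CpGs were called (chr13:48753881-48754689), with 43.6% before Cre, 28.5% at day 4 and 5.86% in WT. The level at day 4 thus lay between that of day 0 and that of WT.
Other members of the group had the same order of levels, in which day 4 below day 0 follows from how the clusters were chosen. A run 7894 bases from the nearest start of *Foxa2*, which encodes an endoderm regulator, went from 29.3% to 14.7% with WT at 1.75% (21 of 32 CpGs called). The run near *Gsx1*, a forebrain homeobox gene, went from 48.0% to 31.6% with WT at 4.07% (21 of 33 called). In *Pax3*, a neural crest and muscle regulator, an intronic run went from 65.1% to 49.4% with WT at 5.90% (16 of 18 called). An intergenic run nearest to the start of *Vax1*, a ventral forebrain homeobox gene, went from 68.5% to 46.4% and was 46.1% at day 8, with WT at 4.65% (13 of 25 called). A run 26093 bases from the start of *Gsc*, the homeobox gene of the gastrula organizer, had a higher WT level of 40.1% (78.2% to 64.9%, 10 of 20 called). A second run 24827 bases from that start went from 35.7% to 23.2% with WT at 14.6% (9 of 15 called).

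The remaining clusters with the largest mean losses had 5 to 18 called CpGs and lay at single loci of mixed kind. In an intron of *Snx29*, a sorting nexin gene, the level went from 53.6% to 31.2% with 15 of 16 CpGs called and WT at 6.43%. An intergenic run on chromosome 10 (chr10:107870813-107871445) went from 41.9% to 19.2% with 18 of 18 called and WT at 6.94%. Coding exons of *Trpm3*, a cation channel gene, and *Cdc42bpg*, a kinase gene, went from 65.5% to 41.5% (5 of 6 called) and from 57.2% to 34.1% (6 of 6 called). Their WT levels were 17.8% and 18.9%. Exonic CpGs of *Fetub*, a liver-secreted protease inhibitor gene, went from 59.9% to 36.1% (11 of 12 called, WT 11.7%).

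The levels at later days are given for called and other CpGs. Day 0 and day 4 values were used in the calls, so the changes from day 0 and from day 4 depend on that choice, and nothing is read from them here. The clustered called CpGs had mean levels of 47.9, 33.5, 29.7, 26.9, 24.5, 20.4 and 16.0% in the order of sampling from day 0 to day 29, with WT at 13.9%. Called CpGs outside clusters had 49.6, 36.6, 33.4, 30.2, 27.5, 22.6 and 16.7%, with WT at 21.9%. CpGs of 20 to 80% at day 0 that were not called had 58.8, 56.7, 50.6, 46.4, 42.9, 35.6 and 26.6%, with WT at 35.3%.

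The CpGs called higher at day 4 were chosen for a high day 4 value, so a lower value at day 8 is no finding. Their mean levels at days 0, 4, 8 and 29 were 31.9, 43.9, 33.9 and 12.99%, with WT at 18.8%. They formed 77 clusters by the same definition, with 447 CpGs. A gene start lay within 5 kb of 47 of these clusters (61.0%), against 291 of the 1215 lower clusters (24.0%) and 29.7% of all CpGs of 20 to 80%, and the difference was not tested. In the *Itpk1* intron (chr12:103938773-103939734) 21 of 23 CpGs were called higher, and the levels at days 0, 4, 8 and 29 were 41.3, 59.9, 51.7 and 17.7%, with WT at 26.5%. The coding exon of *B3gnt7*, a glycosyltransferase gene, went from 35.0% to 54.4% and then to 44.6% at day 8 (12 of 13 called, WT 8.92%). In *Mras*, a Ras-family GTPase gene, an intronic run went from 31.1% to 41.7% and was 31.4% at day 8 (9 of 14 called). The promoter cluster of *Clcn4-2*, a chloride transporter gene, went from 6.39% to 13.4% and was below its WT level of 19.6% at every day (19 of 24 called). No replicate check exists for these gains in SureSelect.

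Over regions, 64065 of 82430 blocks were lower at day 4 (77.7%), with a median change of -1.79 points and quartiles of -3.61 and -0.21. A loss of at least 10 points was found at 1174 blocks (1.42%) and a gain as large at 47. The largest loss relative to the starting level was an intergenic block on chromosome 1 (chr1:92415850-92416183), which went from 29.9% to 8.16%, then to 6.12% by day 8, with 6.65% in WT. In an *Irak3* intron, a gene for a brake on interleukin-1 receptor signalling, a block of 10 CpGs went from 31.0% to 10.97%, with 6.79% in WT. The largest gains included introns of *Anp32a*, which went from 24.4% to 41.5% and was 30.4% at day 8, and *Ptpn3*, which went from 50.1% to 66.0% and was 54.4% at day 8. In *Slc38a4*, an amino acid transporter gene subject to imprinting, an intronic block went from 40.4% to 55.3% and was 45.8% at day 8.

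Of all 14345 promoters with at least 10 CpGs, 9019 were lower at day 4 (62.9%), with a median change of -0.12 points, and 2.03% were lower by 5 points or more. Of the 2549 that also had at least 20% methylation at day 0, 2144 were lower (84.1%), with a median change of -1.75 points. A loss of 5 points or more was found at 276 of them (10.8%) and a gain as large at 6. The promoter of *AI429214*, a gene of unknown function, went from 56.7% to 38.0%, with 14 of 18 CpGs called and WT at 6.86%. That of *Ank2*, a cytoskeletal adaptor gene of heart and neurons, went from 31.1% to 16.9% (15 of 21 called, WT 2.86%), and that of *Dusp27*, a pseudophosphatase gene of muscle, from 42.0% to 25.96% (7 of 13 called). *Gm13225* differed from these, since its promoter was below WT already at day 0 (27.4% at day 0, 14.7% at day 4, WT 42.4%, 12 of 14 called). Of promoters that were higher at day 4, *Bcl3* had 28.9% at day 0 and 37.6% at day 4, and *Plagl1*, a maternally methylated imprinted gene, had 33.3% and 40.01% with 8 of 83 CpGs called higher. Of 4046 gene bodies with at least 30 CpGs and 50% methylation, 3831 were lower (94.7%), with a median change of -1.90 points. After *Lhx9* the largest loss was in *Irak3* (56.9% to 44.7%, 34 of 68 CpGs called), and the largest gain in *Slc39a14*, a metal transporter gene, was 3.46 points with 0 CpGs called.

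Promoters of the gene lists are given beside the 2549 promoters at 20% or more, of which 84.1% were lower with a median change of -1.75 points, and these counts carry no test. Counts are of promoters at 20% or more. Of 15 imprinted promoters 11 were lower and 4 higher, with a median of -2.07 points, and of 22 promoters of germline genes, which ESCs keep silent by methylation, 19 were lower and 3 higher, with a median of -1.71. *Mael*, which protects germ cells from transposons, went from 64.5% to 54.8% (4 of 32 CpGs called), and *Dazl*, a germ cell RNA-binding protein gene, from 59.6% to 56.5% (0 of 63 called). *Grb10*, an imprinted growth inhibitor gene, went from 24.7% to 19.3%, with 15 of 54 CpGs called. All 5 *Hox* promoters above 20% (*Hoxd8*, *Hoxa3*, *Hoxb4*, *Hoxb2* and *Hoxb1*) had lower values at day 4, with a median of -2.25 points and 1 of them lower by 5 points or more. The tissue-specific genes silent in ESCs had 5 promoters lower and 2 higher, with a median of -0.83, and the methylation machinery had 2 lower, with a median of -2.67. None of the 18 measured promoters of pluripotency genes reached 20% (median 1.77%), and 1 of the 24 housekeeping promoters did, with a change of -1.84 points. In gene bodies the share of CpGs called lower was 1.76% for imprinted, 0.337% for germline, 0.870% for pluripotency, 2.02% for methylation machinery, 3.11% for housekeeping, 1.48% for tissue-specific and 1.23% for *Hox* genes. Among all CpGs it was 1.55%, and 2.52% among CpGs of 20 to 90%, and these shares were not adjusted for the levels of the genes.

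The sequence around a CpG went with the size of the loss. Among CpGs of 60 to 90%, the mean change was -1.30 points for a CpG alone in that window, -1.57 with 4 to 5 CpGs, -2.40 with 9 to 12 and -3.21 with 13 to 20. The order of the means was the same at each WT level, but above 60% in WT the chromosome means of the densest and the sparsest CpGs overlapped. With 13 or more CpGs the change was -5.42 points for WT under 20%, -3.37 for 20 to 60% and -1.69 above, and with 1 to 3 CpGs it was -2.51, -1.74 and -0.9997. The base after the CpG made a small difference, with -2.01 points before G and -1.42 to -1.60 before T, A or C, and chromosome means of -2.25 to -1.60 before G and of -1.67 to -1.24 before T. Coding exons changed by -2.48 points, untranslated regions by -2.25, promoters by -1.65, introns by -1.59 and intergenic CpGs by -1.48.

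CpGs near matches to 4 binding motifs were compared at 30 to 90%. These were the motifs of CTCF, an insulator protein, of REST, a repressor of neuronal genes, of NRF1, an activator that binds unmethylated DNA, and of OCT4-SOX2, the pluripotency pair, each a fixed consensus with any base at its variable positions. Both strands were searched, and 1.32, 0.110, 0.944 and 0.0198% of all captured CpGs lay within 50 bases of a match. Next to CTCF matches the mean change was -2.94 points within 25 bases, -3.13 at 25 to 50, -3.75 at 50 to 100, -2.87 at 100 to 200 and -2.09 beyond 1000 bases. The chromosome means at 50 to 100 bases (-4.66 to -3.04) did not overlap with those beyond 1000 bases (-2.33 to -1.58), whereas those of the nearer bins and of 100 to 200 bases did. The share called lower was 2.66% within 25 bases, 6.14% at 50 to 100, 3.04% at 100 to 200 and 2.23% beyond 1000 bases. For NRF1 the change was -3.83 points within 25 bases, -1.81 at 500 to 1000 bases and -2.13 beyond 1000 bases, and the chromosome means of the first and last of these bins overlapped. For REST it was -3.29 points within 25 bases over 234 CpGs, and for OCT4-SOX2 -2.87 over 53 CpGs, which is too few to set by chromosome. Beyond 1000 bases both were at -2.13 points. CpG density and WT level also differ near these motifs, and their part in these values was not tested.

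Lower means were found along all chromosomes. In bins of 1 Mb with at least 50 CpGs of 60 to 90%, 1930 of 1955 bins had a mean below 0 (98.7%), with a median of -1.56 points and an SD over bins of 0.69. The lowest bin was that of *Lhx9*, at 140 Mb of chromosome 1, with -4.29 points over 296 CpGs. The chromosome means at this level ran from -1.88 on chromosome 17 to -1.31 on chromosome X.

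The smallest Fisher p-values among the lower calls included very deeply covered CpGs. The lowest was an intergenic CpG on chromosome 15 (chr15:74917369-74917370), whose nearest start is that of *Ly6c2*, a leukocyte surface antigen gene. It had 32.4% of 26749 reads at day 0 (95% Wilson interval 31.8 to 33.0) and 25.002% of 29982 reads at day 4 (24.5 to 25.5), with an adjusted p of 3.35e-78 by Fisher's exact test. WT was at 28.4%. This depth is far above the median of 248 reads, and whether copies of the sequence share their reads there was not tested. Among the higher calls, the smallest p was at a CpG on chromosome 13 (chr13:62356502-62356503) with 38.8% of 872 reads at day 0 (35.6 to 42.0) and 60.6% of 825 reads at day 4 (57.2 to 63.9), with an adjusted p of 3.35e-15 by Fisher's exact test. It was at 46.9% at day 8 and 13.1% at day 29. Intervals cover counting error only.

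Amplicon bisulfite sequencing of the same line had separate replicates and mock samples, and 239 of its 405 CpGs were measured in SureSelect and in all 9 amplicon samples. The mean level per replicate was 32.1, 31.1 and 31.0% at day 0, 27.3, 28.1 and 28.7% at Cre day 4, and 30.5, 32.5 and 33.3% at mock day 4. All 3 Cre samples were thus below all day 0 and all mock samples, whereas the mock samples surrounded day 0. Cre day 4 was at 28.04% ± 0.69 (SD, n = 3) and day 0 at 31.4% ± 0.58 (SD, n = 3), a change of -3.36 points with p = 0.1 in a two-sided exact permutation test, the smallest p that 3 against 3 allows. Mock day 4 was at 32.1% ± 1.44 (SD, n = 3), a change of 0.73 points with p = 0.5 in the same exact test. Cre minus mock was -4.09 points (exact permutation p = 0.1). At these CpGs SureSelect had 26.9% at day 0 and 25.02% at day 4. At the 78 shared CpGs of 20 to 80% the amplicon values were 46.7% ± 0.91 (SD, n = 3) at day 0, 40.03% ± 1.14 (SD, n = 3) at Cre day 4 and 49.4% ± 3.21 (SD, n = 3) at mock day 4, and SureSelect had 39.4% and 35.7%.

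**Figure D5:**
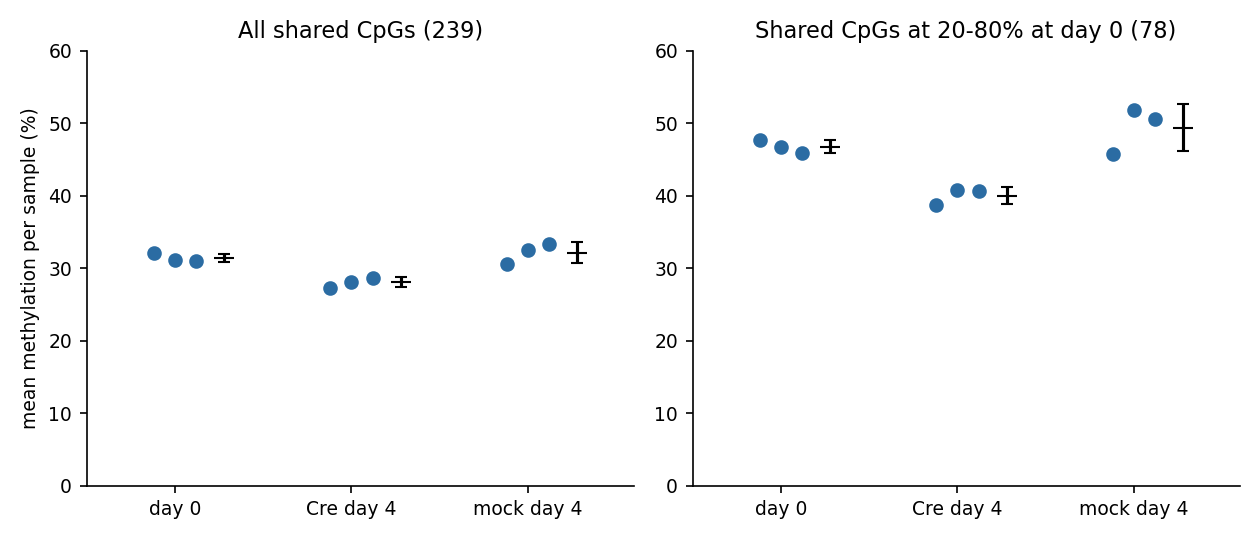
Mean methylation in percent per amplicon sample over the CpGs shared with SureSelect, for TTKO day 0, Cre day 4 and mock day 4, with the mean and SD of 3 replicates to the right of the points. All Cre points lie below all day 0 points, and the mock points lie on both sides of day 0 or reach above it.

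Of the 239 CpGs, 178 were lower at day 4 in SureSelect, 202 in the amplicon means of Cre and 127 in those of mock. SureSelect called 3 of the CpGs shared with the amplicons lower and 0 higher. At the first (chr10:3270136) SureSelect went from 64.3% to 50.5%, and the amplicons from 63.0% ± 2.11 (SD, n = 3) at day 0 to 54.1% at both Cre replicates with a value, with mock at 49.0, 63.3 and 65.3%. At the second (chr13:107863480) SureSelect went from 67.6% to 51.7% and the amplicons from 76.6% ± 1.58 (SD, n = 3) to 69.2% ± 1.79 (SD, n = 3), with mock at 72.6% ± 6.31 (SD, n = 3). At the third (chr19:54250414) SureSelect went from 22.8% to 11.1% and the amplicons from 15.2% ± 2.92 (SD, n = 3) to 10.2% ± 0.36 (SD, n = 3), with mock at 20.6% ± 4.14 (SD, n = 3). The Cre replicates were below the day 0 replicates at all 3 CpGs and did not overlap them. At the first and the second CpG the mock replicates spread across the Cre values. None of these 3 CpGs lies in a cluster named here, so the clusters have no replicate check.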

How the data were processed

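SureSelect libraries of sonicated DNA (51-base read pairs) were aligned by the authors to mm9 with Rbowtie in QuasR and called with qMeth. The authors deposited, per CpG and condition, the coverage as a count of reads and the level as a percent, with replicates joined and no normalization. Amplicon levels were deposited as a fraction per sample by the authors, after AmpliconBiSeq. Methylated reads were taken as coverage times level, and all 2177608 positions were CG in NCBIM37, whose GENCODE M1 genes were used. CpGs were tested with two-sided Fisher's exact tests in Python 3.11.15 (numpy 2.4.6, pandas 2.3.3), adjusted after Benjamini-Hochberg at 0.05. The test was checked on simulated data, in which Fisher's test called more unchanged CpGs than the beta-binomial alternative once replicates were over-dispersed. Promoters reached 1 kb to either side of a start, and blocks joined CpGs by gaps of at most 200 bases. Named clusters were the 10 with the most calls and the 10 with the largest mean loss among those of at least 5 called CpGs. Named blocks were the 10 with the largest loss, the 5 with the largest gain and the 5 with the largest percent loss. Named promoters and gene bodies were the 10 with the largest and the 5 with the smallest loss, and named CpGs had the 5 smallest p-values among those lower and the 3 among those higher. One gene that this rule names is not reported here. Higher clusters, the motifs and the developmental symbols were chosen after values were seen. The comparison and the gene lists were chosen with earlier results of these data known. The motifs and lists therefore support nothing by themselves. The study's methods call the replicates biological, and p-values measure the spread between these samples.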

Additional observations from a re-analysis of the deposited data

How the results depend on the processing

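Of 35 alternative values, 26 kept their direction and their limit, which was 1.5 times for counts, the SD of the chromosome means for the mean change, and direction alone for the amplicon changes, whose tests cannot pass 0.05. The count of called CpGs depended on the noise assumed. With an over-dispersion of 0.0055 it came to 3356 lower and 153 higher CpGs and to 116 clusters, and with the over-dispersion between amplicon replicates, which was chosen after seeing the data, to 23 lower and 0 higher CpGs (Fisher's test at an unadjusted p under 0.05 gave 184641 and 40753). Requiring 10 points left 1956 higher CpGs, and requiring 6 called CpGs left 544 clusters. Using only CpGs with at least 10% at day 0 gave a mean change of -2.18 points. Banding by the day 0 level, also chosen after seeing the data, gave -3.82 points between low and high WT levels against -1.10. The amplicon change at Cre day 4 ran from -3.67 to -2.99 points without single replicates, and the mock change from 0.13 to 1.53. At 20 to 80% the amplicon Cre change was -6.71 points.

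No paired analysis was possible for SureSelect because replicates were joined in each column. For the amplicons, the replicate block gave the same mean changes, -3.36 points for Cre (exact sign-flip p = 0.25, the smallest 3 pairs allow) and 0.73 for mock (exact sign-flip p = 0.75). The deviations of same-numbered day 0 and Cre samples correlated at -0.16, 0.029 and -0.11 over CpGs, so the numbers did not pair the samples. No group had more than 3 samples, so single samples could not be tested for standing apart.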
